A study of Mus musculus with 4 samples.

Results

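Expression of the tryptophan breakdown and kynurenine pathway was examined in liver RNA sequencing of mice fed a steatohepatitis diet with or without 7-ketocholesterol (7KC), an oxidized derivative of cholesterol. The 9 genes were chosen by their gene symbols as the enzymes of the pathway, from Ido1, Ido2 and Tdo2 at its entry to Qprt at its end, and make up 9 of the 24346 genes listed in each library. All mice were male C57BL/6 mice, 8 weeks old at the start according to the methods of the study, and all received a steatohepatitis diet rich in fat and cholesterol with added bile salt (NASH diet) for 3 weeks. The control group (2 libraries) received this diet alone, and the 7KC group (2 libraries) received the same diet with 7KC mixed in. No mice on a normal diet were included, so each comparison is of 7KC on top of the NASH diet. The labels do not say whether each library came from a single animal, so p-values measure only the spread between these libraries.

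Most dietary tryptophan that is not used for protein is broken down in the liver. Tryptophan dioxygenase (TDO2), abundant in hepatocytes, and the indoleamine dioxygenases (IDO1 and IDO2) open the ring, AFMID then yields kynurenine, and KMO, KYNU and HAAO carry it on to an unstable intermediate. At that branch point ACMSD diverts the intermediate to full oxidation, whereas what escapes ACMSD becomes quinolinate, which QPRT turns into a precursor of NAD. IDO1 is known as an enzyme of immune and endothelial cells that interferon-gamma induces, and kynurenine and its derivatives are ligands of the aryl hydrocarbon receptor.

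Values are FPKM, fragments scaled to the length of the transcript and to the number of mapped fragments. They correct for gene length and so allow levels of different genes to be compared. The depth of the libraries, estimated from the steps between their lowest values, was 13640000 to 17080000 reads. All 10 hepatocyte markers examined were present, with a summed level of 86264 and 74352 FPKM without 7KC and 64389 and 50815 FPKM with it. The 10 markers had a median log2 change of -0.40. In 8 of them both 7KC libraries lay below both control libraries, against 27.4% of all genes tested. Of 9 monocyte and macrophage markers, 7 had both 7KC libraries above both control libraries, against 25.1% of all genes tested. The summed level of the 9 was 457 to 702 FPKM in the control group and 1236 to 1916 FPKM in the 7KC group. The summed level of 6 endothelial markers overlapped between the groups. In bulk liver, fewer cells of a type and less RNA per cell cannot be told apart.

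In the control group the pathway was dominated by Tdo2 and Haao. Tdo2 had a mean of 1151 FPKM, Haao 403, Qprt 158, Kmo 135, Kynu 109, Afmid 62.9, Acmsd 47.7 and Ido2 44.3 FPKM. Acmsd and Ido2 overlapped in their control libraries, while all other neighbours in this order were separated in both. Tdo2 alone made up 54.3% and 54.7% of the summed level of the 9 genes without 7KC and 51.9% and 50.8% with it. Ido1 was close to undetected. The order was the same in the 7KC group except that Acmsd, at 25.8 FPKM, moved below Ido2, at 42.5 FPKM, and the libraries of these genes then no longer overlapped, whereas those of Qprt and Kmo did. The summed level of the 9 genes was 2121 and 2102 FPKM without 7KC and 1710.3 and 1354 FPKM with it. That of all listed genes was also lower with 7KC, at 685028 and 671235 FPKM without it and 619828 and 557138 FPKM with it.

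**Figure D1:**
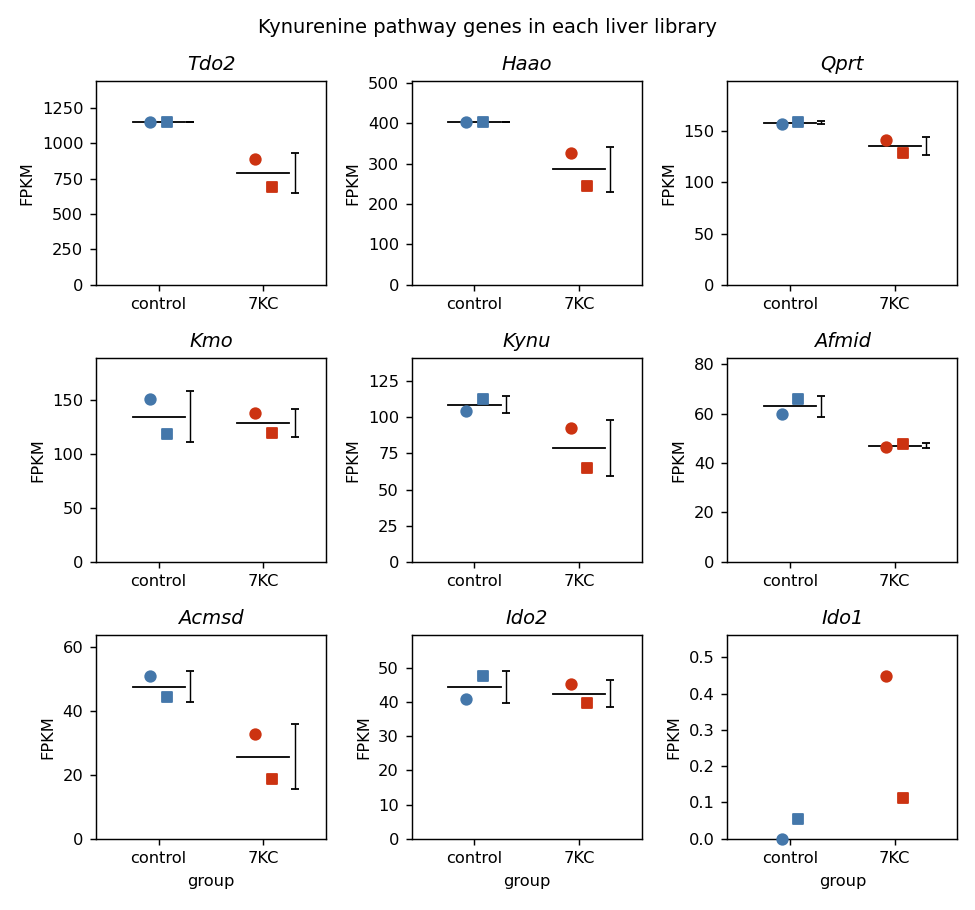
FPKM of the 9 pathway genes in each library, 1 panel per gene on its own linear axis (circles, replicate 1; squares, replicate 2; blue, control; red, 7KC; horizontal line, group mean; bar beside it, SD, n = 2). Ido1, listed at 0 in a library, has no mean or SD, and both 7KC libraries lie below both control libraries for Tdo2, Haao, Qprt, Kynu, Afmid and Acmsd, and the groups overlap for Kmo and Ido2.

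The first question was whether 7KC moved these genes as a whole. Of the 9 genes, 8 passed the filter of a mean of at least 0.5 FPKM and were tested with limma together with all other genes on log2(FPKM + 0.5). None of the 8 passed an adjusted p under 0.05 over the 12299 genes tested, where 0.0244% of all genes passed as lower and 0.480% as higher. At an unadjusted p under 0.05, 5 of the 8 were lower in the 7KC group and none was higher, against 5.81% and 12.0% of all genes tested. In 6 of the 8 genes both 7KC libraries lay below both control libraries, against 27.4% of all genes tested, and in none did both lie above, against 25.1%. The median log2 change of the 8 genes was -0.45, and that of all genes tested was -0.03. The median of the 8 was -0.27 without 7KC replicate 2, and -0.25 after rescaling each library to the same sum, where that of all genes was 0.16.

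**Figure D2:**
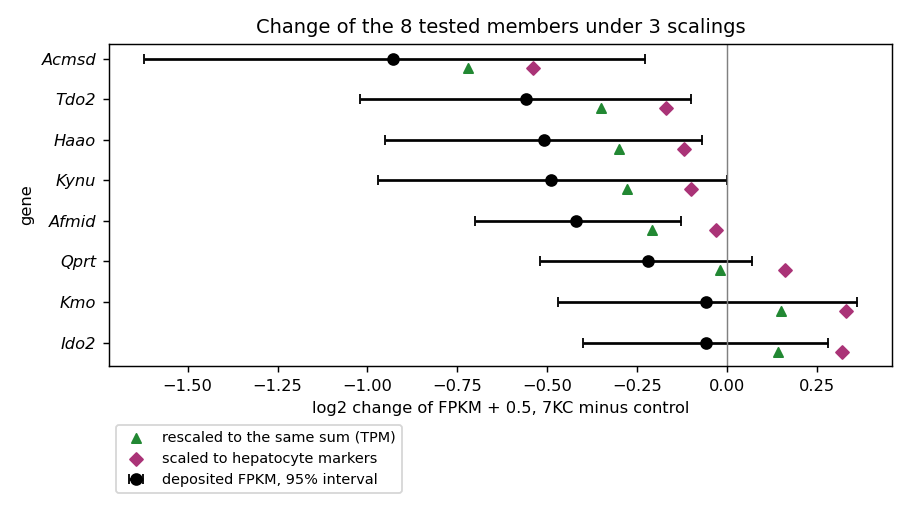
Log2 change (7KC minus control, FPKM + 0.5) of the 8 tested genes. Black points with 95% limma intervals are on the deposited FPKM, green triangles are after rescaling each library to the same sum, and purple diamonds are after scaling to the 10 hepatocyte markers. Acmsd has the most negative value on each scale (-0.93, -0.72 and -0.54), whereas Kmo, Ido2 and Qprt change sign between scales.

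The entry step is catalysed by 3 enzymes. Tdo2 (chromosome 3, 81957090 to 81976202, minus strand, mm10), the hepatocyte dioxygenase, stood at 1152 and 1150.4 FPKM without 7KC and at 887 and 688 FPKM with it. The control libraries were almost equal, and both 7KC libraries were lower without overlap. The group means were 1151 ± 0.976 and 788 ± 141 FPKM (SD, n = 2 each), a log2 change of -0.56 (standard error 0.18, adjusted p 0.218 by limma). Tdo2 ranked 77th of all genes by level in both control libraries, and 88th and 109th in the 7KC libraries.

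Ido2 (chromosome 8, 24531892 to 24576333, minus strand), the close relative of Ido1 that hepatocytes express, stood at 41.0 and 47.7 FPKM without 7KC and at 45.2 and 39.7 FPKM with it. The groups overlapped. Its log2 change was -0.06 (standard error 0.13, adjusted p 0.85 by limma), with a 95% interval of -0.40 to 0.28, and it was 0.14 after rescaling to the same sum, so no direction can be given. Relative to Ido2 of the same library, Tdo2 was at 28.1 and 24.1 in the control group and at 19.6 and 17.3 in the 7KC group. Such a ratio does not depend on how a library is scaled, and here the groups did not overlap, with a log2 difference of -0.50 (exact permutation test, 2-sided, p = 0.333, adjusted over 4 such ratios 0.444). With 2 libraries against 2, 0.333 is the smallest p this test can give.

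Ido1 (chromosome 8, 24584136 to 24597009, minus strand) lies next to Ido2, with 7802 bases between them, but differed from it in level by orders of magnitude. It was listed at 0 and 0.0556 FPKM without 7KC and at 0.448 and 0.111 FPKM with it, which corresponds to about 0 and 1 reads in the control group and 8 and 2 reads in the 7KC group. A count of 0 in control replicate 1 allows up to 3 reads, or 0.129 FPKM, which is above the value of 7KC replicate 2. Per read sequenced, the 10 reads of the 7KC group against 1 read of the control group give a ratio of 11.3, with an exact 95% interval of 1.6 to 489 that covers counting error only. Most of these reads came from 7KC replicate 1. Ido1 was below the filter, and a fit without the filter gave it a log2 change of 0.53 (standard error 0.23, adjusted p 0.379 by limma). No 75-base stretch of an Ido1 or Ido2 transcript occurs in a transcript of another gene in GENCODE M21, so reads of this length, that of the study, do not match both genes.

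The second step is the hydrolysis of formylkynurenine by AFMID. Afmid (chromosome 11, 117825924 to 117839908, plus strand) stood at 59.9 and 66.0 FPKM without 7KC and at 46.4 and 47.6 FPKM with it. The groups were separated by more than the spread within either of them. The means were 62.9 ± 4.26 and 47.0 ± 0.845 FPKM (SD, n = 2 each), a log2 change of -0.42 (standard error 0.11, adjusted p 0.158 by limma), the smallest p of the pathway. Afmid overlaps Tk1, a thymidine kinase gene on the opposite strand, and 38.8% of its 75-base stretches also occur in Gm20708, an overlapping gene model of the same strand that is not among the listed genes. The overlap with Tk1 was taken from gene spans, and exons were not compared. The strand setting of the counting is not given in the sources used here, so the level of Afmid is uncertain. Tk1 itself was at 20.4 and 21.4 FPKM without 7KC and at 19.2 and 19.4 FPKM with it.

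The middle of the pathway did not move evenly. Kmo (chromosome 1, 175620381 to 175662116, plus strand), the mitochondrial hydroxylase that commits kynurenine to the NAD branch, stood at 151 and 118 FPKM without 7KC and at 138 and 119.8 FPKM with it. The groups overlapped, and the spread within the control group was wider than the difference between the groups. The log2 change was -0.06 (standard error 0.17, adjusted p 0.892 by limma), with a 95% interval of -0.47 to 0.36, and 0.15 after rescaling to the same sum, so no direction can be given. The span of Kmo overlaps that of Fh1, a fumarate hydratase gene on the opposite strand. As with Afmid and Tk1, exons were not compared and the strand setting is not given, so the level of Kmo is uncertain. Fh1 was at 220 and 143 FPKM without 7KC and at 154 and 114 FPKM with it. The ratios with Kmo given below share this limit.

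Kynu (chromosome 2, 43555329 to 43682715, plus strand), the kynureninase that cleaves the product of KMO, stood at 105 and 113 FPKM without 7KC and at 92.3 and 64.9 FPKM with it. The 7KC libraries were both lower but differed from each other more than 7KC replicate 1 differed from the control group. The log2 change was -0.49 (standard error 0.19, adjusted p 0.278 by limma). Relative to Kmo of the same library, Kynu was at 0.693 and 0.955 in the control group and at 0.669 and 0.542 in the 7KC group. The gap between the groups was small beside the spread within them, and the log2 difference of -0.43 had the smallest p the exact permutation test allows (0.333, adjusted 0.444) and ranged from -0.67 (leaving out control replicate 1) to -0.20 (leaving out control replicate 2).

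Haao (chromosome 17, 83831156 to 83847963, minus strand), the dioxygenase that makes the branch-point intermediate, stood at 404 and 403 FPKM without 7KC and at 326 and 246 FPKM with it. As with Tdo2, the control libraries were almost equal and 7KC replicate 2 was the lowest. The means were 403 ± 0.621 and 286 ± 56.6 FPKM (SD, n = 2 each), a log2 change of -0.51 (standard error 0.17, adjusted p 0.231 by limma). Haao kept a share of 18.1% to 19.2% of the summed pathway level in all 4 libraries.

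Past the branch point the pathway splits between Acmsd and Qprt. Acmsd (chromosome 1, 127729413 to 127767978, plus strand), the decarboxylase that keeps the intermediate from becoming quinolinate, stood at 51.0 and 44.3 FPKM without 7KC and at 32.9 and 18.6 FPKM with it. Both 7KC libraries were lower, and 7KC replicate 2 was well below 7KC replicate 1. The means were 47.7 ± 4.77 and 25.8 ± 10.1 FPKM (SD, n = 2 each), a 7KC to control ratio of 0.540 and a log2 change of -0.93 (standard error 0.27, adjusted p 0.19 by limma). It was -0.52 without 7KC replicate 2 and -1.33 without 7KC replicate 1, so its size rested on a single library. The lowest of these values still rests on about 644 reads, with a counting error of 3.94% (coefficient of variation), so the distance between the 7KC libraries is far larger than counting error. A noncoding gene on the opposite strand, 2900009J06Rik, overlaps the span of Acmsd and was at 2.78 and 3.45 FPKM without 7KC and at 2.03 and 1.15 FPKM with it. Without the strand setting, reads from any exon sequence that both genes cover cannot be told apart. Whether their exons overlap was not examined.

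Qprt (chromosome 7, 127107114 to 127122226, minus strand), which turns quinolinate into nicotinate mononucleotide, stood at 157 and 159 FPKM without 7KC and at 142 and 129 FPKM with it. The groups did not overlap, and the difference was small, with a log2 change of -0.22 (standard error 0.12, adjusted p 0.38 by limma) that came to -0.02 after rescaling to the same sum. Relative to Qprt of the same library, Acmsd was at 0.324 and 0.278 in the control group and at 0.232 and 0.144 in the 7KC group. The groups did not overlap, with a log2 difference of -0.72 (exact permutation p = 0.333, adjusted 0.444), which was -0.37 without 7KC replicate 2. Qprt, on the branch toward NAD, thus differed less between the groups than Acmsd, on the branch away from it, by a difference that 2 libraries a group cannot test.

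**Figure D3:**
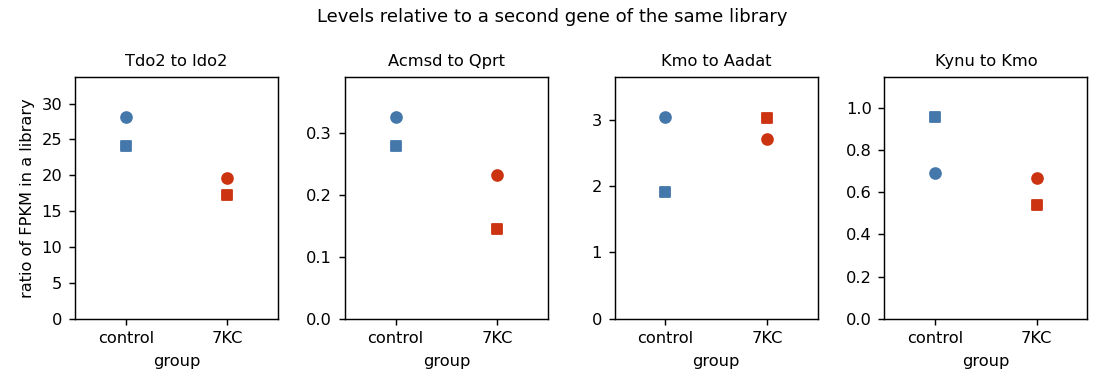
FPKM of a gene divided by that of a second gene in the same library, for 4 pairs (circles, replicate 1; squares, replicate 2; blue, control; red, 7KC; axes start at 0). Tdo2 to Ido2, Acmsd to Qprt and, narrowly, Kynu to Kmo are lower in both 7KC libraries, and Kmo to Aadat overlaps between the groups.

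The summed hepatocyte markers were lowest in 7KC replicate 2, as were Tdo2, Kynu, Haao, Acmsd, Qprt and Ido2, whereas Afmid was lowest in 7KC replicate 1 and Kmo in control replicate 2. After scaling to the geometric mean of the 10 hepatocyte markers, an alternative added after the data were seen, the log2 changes were -0.54 for Acmsd, -0.17 for Tdo2, -0.12 for Haao, -0.10 for Kynu and -0.03 for Afmid. On this scale those of Qprt, Ido2 and Kmo were 0.16, 0.32 and 0.33, and the median of all genes tested was 0.32. None passed the threshold, and the smallest adjusted p was 0.111 for Acmsd. The median of the 8 genes was -0.06. Whether hepatocyte content had a part in these differences was not tested, because scaling to such markers cannot tell fewer hepatocytes from less RNA per cell.

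The side branches of the pathway were examined next. They comprise the aminotransferases that turn kynurenine into kynurenate (Kyat1, Kyat3, Aadat and Got2) and the enzymes that oxidize the product of ACMSD or its downstream acids (Aldh8a1, Dhtkd1 and Gcdh). All 7 had a negative log2 change on the deposited scale, with a median of -0.37 and a range of -0.44 to -0.25. In 5 of them both 7KC libraries lay below both control libraries, against 27.4% of all genes tested. The median of the 7 was -0.19 without 7KC replicate 2, -0.16 after rescaling to the same sum and 0.02 after scaling to hepatocyte markers. None passed the threshold, and 3 were lower at an unadjusted p under 0.05 with limma, against 5.81% of all genes tested. These were Dhtkd1, a subunit of a mitochondrial 2-oxoadipate dehydrogenase, at 10.5 and 11.3 against 8.68 and 7.51 FPKM (limma adjusted p 0.201), Aldh8a1, the aldehyde dehydrogenase after ACMSD (log2 change -0.40, adjusted p 0.241), and Gcdh, glutaryl-CoA dehydrogenase (-0.37, adjusted p 0.265). The ratio of Kmo to Aadat, which compares the routes out of kynurenine, was 3.03 and 1.92 in the control group and 2.71 and 3.03 in the 7KC group, and overlapped (exact permutation p = 1).

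The genes around NAD did not share a direction. Of 9 tested genes of NAD synthesis and nicotinamide use, 5 had both 7KC libraries lower and 2 had both higher. The shares of all genes tested were 27.4% and 25.1%. None of the 9 passed the threshold. At an unadjusted p under 0.05 with limma 2 were lower and 1 higher, against 5.81% and 12.0% of all genes tested. Nampt, the key enzyme of NAD salvage from nicotinamide, was at 30.3 and 25.1 FPKM without 7KC and at 45.9 and 40.7 FPKM with it (log2 change 0.64, SE 0.14, adjusted p 0.11). Nmnat1, which completes NAD in the nucleus, was at 10.6 and 9.91 against 7.83 and 7.78 FPKM (adjusted p 0.193), and Naprt, which starts NAD synthesis from nicotinic acid, was at 59.1 and 58.1 against 49.0 and 47.2 FPKM (adjusted p 0.255). The libraries with lower levels of most pathway genes thus had higher levels of Nampt.

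Of 9 tested NAD-consuming enzymes, 1 passed the threshold as higher, 5 had both 7KC libraries higher and 2 had both lower. The shares of all genes tested were 0.480%, 25.1% and 27.4%. Bst1, an ADP-ribosyl cyclase also found on myeloid cells, rose from 1.31 and 0.88 FPKM in the control libraries to 5.32 and 6.30 FPKM in the 7KC libraries, a log2 change of 1.99 (standard error 0.19, adjusted p 0.0327 by limma). Its call was lost without control replicate 2 (adjusted p 0.0627), 7KC replicate 1 (0.152) or 7KC replicate 2 (0.265), and with the replicate number as a block (0.167). The monocyte and macrophage markers above were higher in the same libraries, and their part in this rise was not tested.

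Interferon-gamma is the known inducer of Ido1, and 10 genes of its signaling were listed for this reason, with earlier results of these data known. Of the 10, 2 passed the threshold as higher, 8 were higher at an unadjusted p under 0.05, and 9 had both 7KC libraries above both control libraries. The shares of all genes tested were 0.480%, 12.0% and 25.1%. Jak1 (log2 change -0.02, named after its values were seen) was the 1 that overlapped. The median log2 change of the 10 was 1.31. Irf8, an interferon regulatory factor of myeloid cells, rose from 10.6 and 8.16 FPKM to 26.8 and 26.2 FPKM (log2 change 1.46, SE 0.15, adjusted p 0.0369 by limma). Its call did not hold without control replicate 2 (adjusted p 0.0676), without 7KC replicate 1 (0.159), without 7KC replicate 2 (0.289) or with the replicate number as a block (0.151). Ifng itself, named after its values were seen, was at 0.408 and 0.362 FPKM without 7KC and at 2.99 and 1.38 FPKM with it (log2 change 1.53, limma adjusted p 0.104). Its control mean of 0.385 FPKM lies below the filter of 0.5 FPKM, so it was tested only through its level with 7KC. It is among the 8 and the 9 counted above, which for this gene are no independent support. T and NK cell markers, the known source of interferon-gamma, had both 7KC libraries higher in 6 of 6 tested genes, and dendritic cell markers in 4 of 6. The share of all genes tested was 25.1%.

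Of 12 tested genes for other uses and the transport of tryptophan, none passed the threshold. Both 7KC libraries were higher in 5, against 25.1% of all genes tested. Both were lower in 3, which is near the share of all genes (27.4%). At an unadjusted p under 0.05 with limma 2 were higher and 2 lower, against 12.0% and 5.81% of all genes. Wars, the tryptophanyl-tRNA synthetase and a known interferon-gamma target, was at 12.9 and 10.2 FPKM without 7KC and at 20.0 and 18.1 FPKM with it (log2 change 0.70, SE 0.15, limma adjusted p 0.104). The amino acid exchanger gene Slc7a8 was at 2.46 and 2.50 against 4.08 and 5.80 FPKM (adjusted p 0.113), and the aromatic amino acid transporter gene Slc16a10 was at 32.9 and 38.0 against 28.3 and 23.6 FPKM (adjusted p 0.214). Tph1 and Tph2, which start serotonin synthesis, were listed at 0 in all libraries.

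The aryl hydrocarbon receptor list served to read out a receptor of kynurenines. Of 6 tested genes none passed the threshold, and 1 was higher at an unadjusted p under 0.05 with limma (12.0% of all genes tested). Both 7KC libraries were higher in 2, not far from the share of all genes (25.1%), and 4 overlapped. Nqo1, a quinone reductase, was at 4.76 and 4.08 against 6.33 and 6.29 FPKM (limma adjusted p 0.168), and Arnt, the partner of the receptor, at 9.32 and 9.64 against 11.8 and 11.0 FPKM (adjusted p 0.319). Cyp1a2, a classical target, was at 203 and 335 FPKM without 7KC and at 211 and 158 FPKM with it, and overlapped (log2 change -0.51, adjusted p 0.392). Cyp1a1, the most used indicator of this receptor, was below the filter.

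Tdo2 is a textbook glucocorticoid-induced gene, and 10 genes of the glucocorticoid response were listed for this reason, with earlier results of these data known. In 6 of them both 7KC libraries lay below both of the control group, against 27.4% of all genes tested, and 4 overlapped. Those 4, named after their values were seen, were Sgk1, Per1, Nr3c1 and Pck1 (log2 changes 0.59, 0.03, -0.04 and -0.18). The median of the 10 on the log2 scale was -0.50 (-0.17 without control replicate 1 and -0.11 after scaling to hepatocyte markers). None passed the threshold, and 2 were lower at an unadjusted p under 0.05 with limma, against 5.81% of all genes. G6pc, glucose-6-phosphatase, was at 348 and 309.8 FPKM without 7KC and at 128 and 197 FPKM with it (log2 change -1.05, SE 0.23, adjusted p 0.109). Fkbp5, a receptor co-chaperone, was at 59.0 and 45.8 against 25.6 and 34.2 FPKM (-0.80, adjusted p 0.134), and Tsc22d3, a leucine zipper gene, at 103 and 57.1 against 40.9 and 55.5 FPKM (-0.68, adjusted p 0.33).

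The pathway was last compared with the breakdown of other amino acids in hepatocytes. Of 23 such genes, 12 had both 7KC libraries below both control libraries and none had both above, against 27.4% and 25.1% of all genes tested. None passed the threshold, and 7 were lower at an unadjusted p under 0.05 with limma, against 5.81% of all genes. The median log2 change of the 23 genes, -0.36, lay close to that of the 8 kynurenine pathway genes (-0.45) and of the hepatocyte markers (-0.40). It came to -0.16 after rescaling to the same sum and 0.02 after scaling to hepatocyte markers. Cdo1, cysteine dioxygenase, was at 1268 and 1628 FPKM without 7KC and at 948 and 849.6 FPKM with it (limma adjusted p 0.175). Mat1a, which makes S-adenosylmethionine, was at 1489 and 1367 against 991 and 976 FPKM (adjusted p 0.181), and Hpd, of tyrosine breakdown, at 2735 and 3119 against 2077 and 1531 FPKM (adjusted p 0.207).

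**Figure D4:**
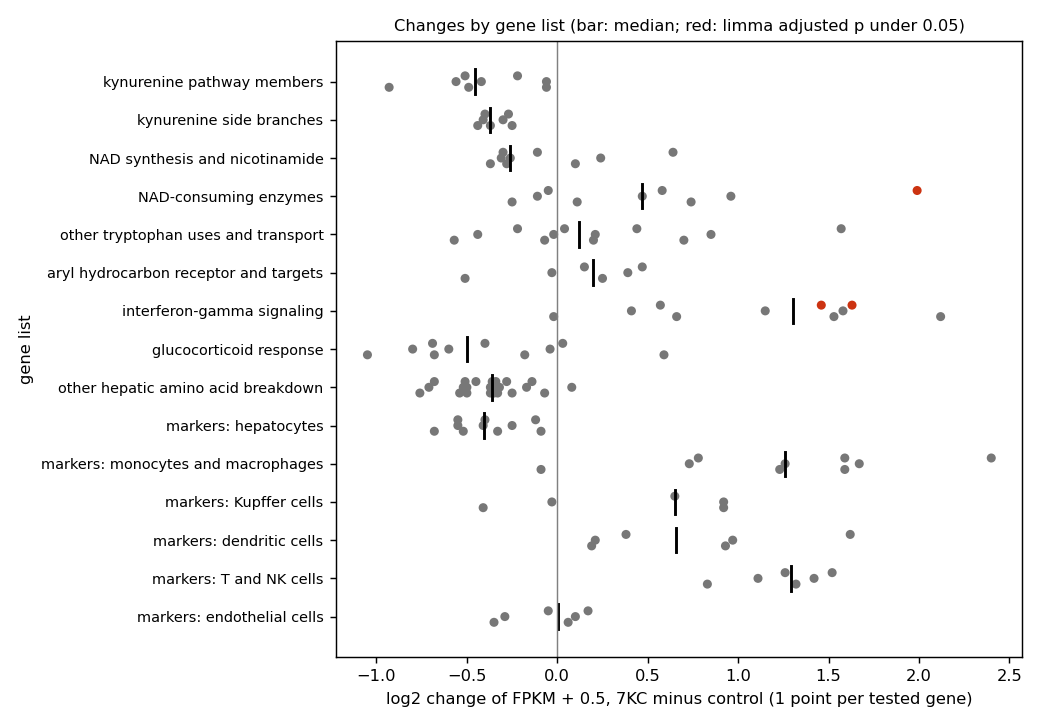
Log2 change (7KC minus control, FPKM + 0.5) of each tested gene by list, with the list median as a black bar and genes past the limma threshold in red. The pathway members (median -0.45), their side branches (-0.37), other amino acid breakdown (-0.36) and hepatocyte markers (-0.40) lie to the left of 0, and interferon-gamma signaling (1.31) and the monocyte and macrophage (1.26) and T and NK cell (1.29) markers to the right.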

How the data were processed

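The authors prepared stranded messenger RNA libraries, read 75 bases from 1 end on a HiSeq, aligned to mm10 with TopHat and Bowtie2, and deposited FPKM from Cufflinks with 1 value for each gene symbol in a library. The submitters' processing notes name TopHat2 2.1.1, Bowtie2 2.2.8, SAMtools 0.1.18 and Cuffdiff 2.2.1. The annotation and the settings for multi-mapped reads and strand are not given in the sources used here. FPKM is relative to all mapped reads, so abundant genes move all others.

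Groups were taken from the sample labels. Genes whose mean was 0.5 FPKM or more (12299 of 24346) were tested on log2(FPKM + 0.5), a scale that understates the change of low genes, with limma 3.58.1 in R 4.3.3 (moderated with a trend of variance on expression, 2 residual and 3.27 prior degrees of freedom), 2-sided, with Benjamini-Hochberg adjustment over all genes tested and a threshold of 0.05. The fit was tested on simulated data. Ratios of 4 gene pairs were compared by an exact permutation test. Lists were described by counts and medians and not tested. Members and lists were chosen with earlier results of these data known.

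Depth was the number of reads that made most values of up to 10 reads whole, given transcript lengths of single-transcript genes in GENCODE M21 (GRCm38, the same build) less a fragment of 200 bases. This left 70.2% to 71.9% of 554 to 612 values per library whole to within 0.1 read. By chance 20% would be whole at a depth fixed in advance, but the depth was picked to make this share largest. Coordinates are from GENCODE M21. All 9 genes were described in every library. From each list the genes past the threshold were named, or else the 3 with the smallest p, except that 1 gene past the threshold is not reported here.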

Additional observations from a re-analysis of the deposited data

How the results depend on the processing

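None of the 8 tested pathway genes passed the threshold under any alternative that kept all 4 libraries. Over the 13 alternatives tried for them, 95 of 104 values kept their direction. Part of this was fixed in advance, because changing the filter, dropping the variance trend or adding the replicate block leaves a log2 change as it was. The 9 values that reversed were those of Ido2, Kmo and Qprt. Ido2 was at 0.14 and Kmo at 0.15 after rescaling to the same sum, where all genes had a median of 0.16, and Ido2, Kmo and Qprt were at 0.32, 0.33 and 0.16 after scaling to hepatocyte markers (all genes 0.32). Leaving out 1 library moved Ido2 between -0.17 and 0.05, Kmo between -0.23 and 0.12, Tdo2 between -0.74 and -0.38, Kynu between -0.74 and -0.23, Haao between -0.71 and -0.31 and Acmsd between -1.33 and -0.52. The log2 difference of Kmo to Aadat was between -0.08 and 0.58.

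The counts of all genes past the threshold depended on the processing, and the cause was not tested. Against 59 higher and 3 lower, raising the pseudocount to 1 FPKM gave 111 higher, no filter 0 higher and 1 lower, rescaling to the same sum 398 and 7, median ratio scaling 94 higher, no trend in the prior variance 39 and 1, and scaling to hepatocyte markers 1291 and 9. Leaving out 1 library gave between 2 (without 7KC replicate 2) and 389 (without control replicate 1) higher and between 1 (without 7KC replicate 1) and 52 (without control replicate 1) lower. Without the filter the adjusted p of Irf8 and Bst1 was 0.12 and 0.123, and without the trend that of Irf8 was 0.0603. The replicate block, with the number in the labels as the block, gave 0 higher and 0 lower. Deviations from the group mean were only weakly related between same-numbered libraries (correlation -0.141 over genes, which are not independent). The crossed replicate block, added after seeing the data, gave 551 higher and 37 lower.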

Other observations

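Among the NAD-consuming enzymes, values beyond the genes described above were looked at after the results were seen. Cd38, an NAD glycohydrolase of leukocytes, was at 10.7 and 9.97 FPKM without 7KC and at 19.5 and 21.7 FPKM with it (log2 change 0.96, SE 0.12, limma adjusted p 0.0512), just short of the threshold. The interferon-inducible PARP family genes Parp9 (13.5 and 14.9 against 22.5 and 20.6 FPKM, limma adjusted p 0.097) and Parp14 (7.75 and 9.62 against 15.8 and 13.9 FPKM, adjusted p 0.0966) also had both 7KC libraries above both control libraries. So did Parp10 (6.31 and 6.64 against 9.49 and 8.79 FPKM, adjusted p 0.138). Parp1, the main DNA damage polymerase of this family, overlapped (13.0 and 10.6 against 11.2 and 11.4 FPKM), as did Parp2. Sirt1 (3.36 and 3.52 against 3.32 and 3.00 FPKM) and Sirt3 (57.9 and 56.0 against 50.4 and 45.1 FPKM) had both 7KC libraries lower. Of all genes tested, 25.1% had both higher and 27.4% both lower.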
